A study of Capra hircus with 9 samples.

Results

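chi-miR-183, chi-miR-96 and chi-miR-182 form a cluster of 3 miRNAs, which were taken from the count table by their miRNA number. They are 3 of the 1359 miRNAs listed there, 436 of which are known miRNAs, and each was listed with 1 mature arm. Small RNA was sequenced from the mammary gland of healthy Laoshan dairy goats (Capra hircus), which were at parity 3 and 4 years old on average. There were 3 goats in each of 3 groups, and 1 library for each goat. Late lactation (LL) was sampled at 240 days after birth of the kids. The dry period (DP) was sampled at 300 days after it, and late gestation (LG) was reached 140 days after mating. Each goat gave tissue at 1 stage only, so stages are compared between animals and not within them. Whole tissue was used, which holds epithelium, stroma, vessels and blood.

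The 3 miRNAs are made from neighbouring hairpins that are usually transcribed together as 1 primary transcript, and the cluster is conserved among animals. It is best known from sensory organs, where mutations in the seed of miR-96 cause hearing loss, and it is also abundant in many epithelia and in tumours that arise from them. The seeds of miR-96 and miR-182 are closely related, whereas that of miR-183 differs from both. FOXO transcription factors are among the known targets of miR-96 and miR-182, and EGR1 is a known target of miR-183.

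In the RefSeq annotation of ARS1.2, the genome build to which the reads were aligned, all 3 hairpin genes lie on chromosome 4. MIR183 spans chr4:26544678-26544787, which is 110 bases. MIR96 spans chr4:26544932-26545034, which is 103 bases. MIR182 spans chr4:26549347-26549450, which is 104 bases, and is separated from MIR96 by 4312 bases, so that the 3 hairpins cover 4773 bases in all. None overlapped another annotated gene (0 for each hairpin), so they are intergenic in this annotation. The nearest protein-coding genes are UBE2H, 48995 bases away at lower coordinates, and NRF1, 9687 bases away at higher coordinates. The nearest other miRNA genes, MIR335 and MIR592, are far outside the cluster, at 638820 and 2255758 bases.

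The libraries held 13672653 to 34378995 counts, and the lowest count of a member in any library was 985. That count, for chi-miR-96 in LL replicate 3, corresponds to 40.0 CPM (counts divided by the library's total, on the usual CPM scale), with a Wilson 95% interval of 37.6 to 42.6 that covers counting error only. In comparison, the spread between goats was much wider than counting error for all 3 members. chi-miR-148a-3p, which ranked first in all LL and LG libraries and between 2 and 4 in DP, averaged 536423 CPM by library size in LL, 96081.9 CPM in DP and 424865 CPM in LG, so the scaling of the libraries bears on all levels below. Levels are therefore given as CPM with TMM scaling, which sets the libraries against each other by the bulk of the miRNAs, and the ratios between miRNAs of 1 library are given as well, since they do not depend on scaling. All 3 members were tested with edgeR, among the 696 miRNAs that reached 0.5 CPM in 3 or more libraries. A miRNA was called a DE-miRNA where the adjusted p was under 0.05 and the log2 fold change was above 1 in either direction.

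chi-miR-183 rose in DP compared with LL, a call that was lost in 12 of 19 alternatives, and no other comparison of a member between stages passed both thresholds. All 3 members had their highest mean level in DP. chi-miR-182 was the most abundant member in every library and chi-miR-96 the least abundant. Relative to the miR-200 family, the other well-known group of epithelial miRNAs, the 3 members were 3.35 to 5.27-fold higher in DP than in LL. The family itself was lower in DP, and the median miRNA was 2.25-fold higher relative to it.

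chi-miR-183 had levels of 198, 204.99 and 80.3 CPM in LL replicates 1 to 3. In DP, its levels were 409, 441 and 246 CPM. In LG, its levels were 272, 172 and 147.6 CPM. All DP libraries were above all LL libraries, whereas the LG libraries overlapped both of the other stages, and LL replicate 3 was the lowest of the 9 libraries. The stage means were 161 ± 70.1 CPM in LL, 365 ± 104 CPM in DP and 197 ± 65.9 CPM in LG (SD, n = 3), and the highest library was 5.49-fold above the lowest.

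chi-miR-96 had levels of 138, 95.6 and 53.2 CPM in LL replicates 1 to 3. In DP, its levels were 213, 92.7 and 124 CPM. In LG, its levels were 170, 110.0 and 75.7 CPM. The 3 stages overlapped, and DP replicate 2, which was the highest DP library for the other members, was the lowest one for chi-miR-96. The stage means were 95.5 ± 42.4 CPM in LL, 143.3 ± 62.7 CPM in DP and 118 ± 47.6 CPM in LG (SD, n = 3), and the highest library was 4.01-fold above the lowest.

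chi-miR-182 had levels of 750.3, 607 and 298 CPM in LL replicates 1 to 3. In DP, its levels were 952, 1126 and 626 CPM. In LG, its levels were 642, 432 and 321 CPM. DP replicates 1 and 2 were above every library of the other stages, but DP replicate 3 lay below LL replicate 1 and LG replicate 1, so the stages overlapped. The stage means were 552 ± 231 CPM in LL, 901 ± 254 CPM in DP and 465 ± 163 CPM in LG (SD, n = 3), and the highest library was 3.77-fold above the lowest.

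**Figure D1:**
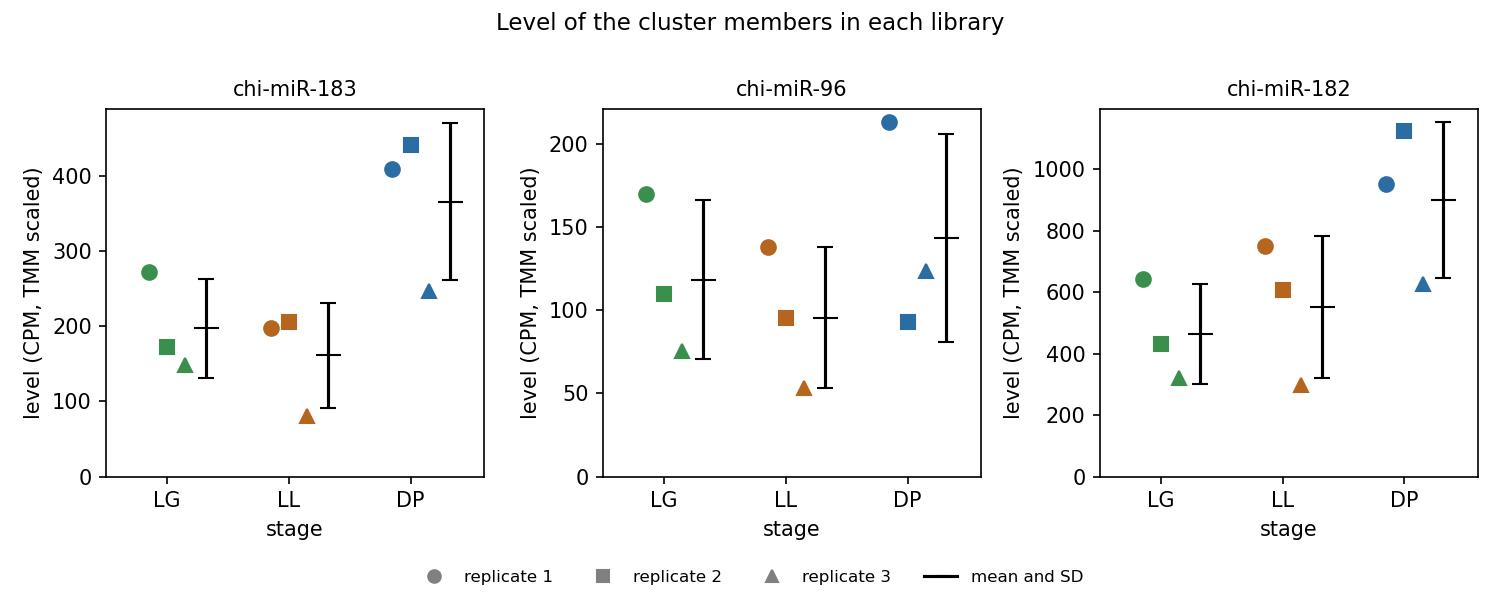
Level of chi-miR-183, chi-miR-96 and chi-miR-182 in each of the 9 libraries, in CPM with TMM scaling, with the stages in the order LG, LL and DP; each point is 1 goat, the marker shape gives the replicate number, and the bar beside the points is the mean with its SD. The DP mean is the highest for each member, at 365, 143.3 and 901 CPM, and DP lies apart from LL for chi-miR-183 only.

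Ordered by their mean, the stages ran DP, LG, LL for chi-miR-183 and chi-miR-96 and DP, LL, LG for chi-miR-182. The 2 lower stages differed by less than the SD between goats for each member. By rank of its count within a library, chi-miR-182 was between the 57th and the 98th most abundant miRNA. chi-miR-183 was between the 94th and the 162nd, and chi-miR-96 between the 113th and the 179th. LL replicate 3 gave the lowest rank for each member. The 3 members together made up 0.0809%, 0.0835% and 0.0325% of the counts of LL replicates 1 to 3. In DP they made up 0.183%, 0.154% and 0.102% of the counts. In LG they made up 0.124%, 0.0849% and 0.0699% of the counts. DP and LL did not overlap, whereas LG overlapped LL through LG replicate 3 and DP through LG replicate 1.

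The comparison of DP with LL asks how the gland of the dry period differs from the end of milking. chi-miR-183 was 2.27-fold higher in DP, a log2 fold change of 1.18 with an SE of 0.39 (adjusted p = 0.0441, edgeR). It was higher in all 3 DP libraries than in any LL library. The log2 fold change of chi-miR-182 was 0.71 (SE 0.38, adjusted p = 0.176, edgeR), and that of chi-miR-96 was 0.59 (SE 0.43, adjusted p = 0.341, edgeR), so neither passed the test. Leaving out 1 library at a time moved the value of chi-miR-182 between 0.34 (without LL replicate 3) and 1.05 (without LL replicate 1). The value of chi-miR-96 moved between 0.05 (without DP replicate 1) and 0.995 (without LL replicate 1), and was 0.21 without LL replicate 3. Thus 1 of 3 members was a DE-miRNA, against 26.7% of all miRNAs tested (186 of 696), of which 15.1% were higher in DP and 11.6% lower. The levels of DP and LL did not overlap for 1 of 3 members, against 41.2% of all miRNAs tested. With scaling by library size only, chi-miR-182 did not overlap either, at 640 to 1109 CPM in DP and 225 to 559 CPM in LL. With TMM, both shares are near the background. The median log2 fold change of all miRNAs tested was 0.12.

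The call of chi-miR-183 sat close to the thresholds. It was lost in 12 of 19 alternatives, whereas the fold change on the log2 scale was positive in all 19. Without LL replicate 3, in which the level was lowest, it was 0.80 (adjusted p = 0.124, edgeR). Without DP replicate 1 or DP replicate 2 it was 0.97 (adjusted p = 0.126) or 1.01 (adjusted p = 0.121). Without LL replicate 1 or LL replicate 2 it was 1.41 (adjusted p = 0.0640) or 1.30 (adjusted p = 0.0921). Leaving out LG replicate 2 or LG replicate 3 gave 1.18 (adjusted p = 0.0607) or 1.17 (adjusted p = 0.0519). With scaling by library size only, the call was kept at 1.52 (adjusted p = 0.0175).

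The comparison of DP with LG sets the dry gland against the gland that prepares for the next lactation. The log2 fold change of chi-miR-182 was 0.95 (SE 0.38, adjusted p = 0.0731, edgeR). That of chi-miR-183 was 0.89 (SE 0.39, adjusted p = 0.102, edgeR). That of chi-miR-96 was 0.27 (SE 0.43, adjusted p = 0.676, edgeR), and this value was negative in 5 of 19 alternatives. Without 1 library at a time, chi-miR-182 ranged from 0.55 (without LG replicate 3) to 1.09, and was 0.59 without DP replicate 2. In the same way, chi-miR-183 ranged from 0.52 (without LG replicate 3) to 1.02, and was 0.55 without DP replicate 2. The value of chi-miR-96 ranged from −0.32 (without DP replicate 1) to 0.45. Without a filter on low counts, chi-miR-182 had 0.55 and chi-miR-183 had 0.49. None of the 3 members was a DE-miRNA and none had stages that did not overlap, against 31.5% and 44.7% of all miRNAs tested.

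The comparison of LL with LG is that of the end and the approach of milk secretion. The log2 fold change was 0.25 for chi-miR-182 (SE 0.38, adjusted p = 0.729, edgeR), −0.29 for chi-miR-183 (SE 0.39, adjusted p = 0.686) and −0.31 for chi-miR-96 (SE 0.43, adjusted p = 0.695). The sign for chi-miR-182 turned in 4 of 19 alternatives, among them scaling by library size. No member was a DE-miRNA and none had stages that did not overlap, against 12.8% and 48.4% of all miRNAs tested. With scaling by library size only, chi-miR-183 did not overlap, at 60.4 to 188.6 CPM in LL and 189.6 to 311.8 CPM in LG. Without 1 library at a time, chi-miR-183 ranged from −0.69 (without LL replicate 1) to −0.09 (without LL replicate 3). In the same way, chi-miR-96 ranged from −0.90 (without LL replicate 1) to −0.12 (without LG replicate 1), and chi-miR-182 from −0.27 (without LL replicate 1) to 0.43 (without LL replicate 3). Each stage enters 2 of the comparisons, so these are not independent of each other.

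**Figure D2:**
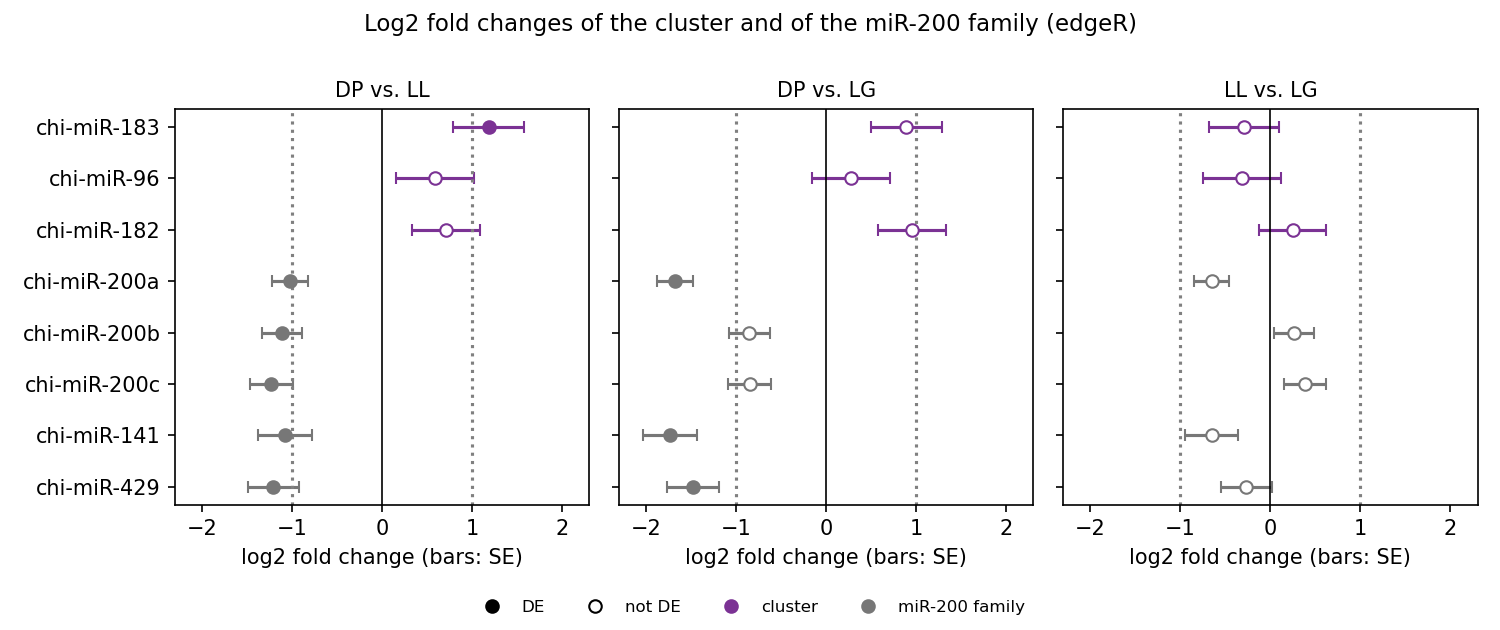
Log2 fold change of the 3 cluster members (purple) and the 5 members of the miR-200 family (grey) in DP vs. LL, DP vs. LG and LL vs. LG, from the edgeR fit of all 9 libraries; bars are SE, filled points are DE-miRNAs and dotted lines mark a log2 fold change of 1 in either direction. In DP vs. LL, chi-miR-183 is the only filled cluster member, at 1.18, and the 5 family members are filled at −1.02 to −1.23.

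Since the members are read in the same library, their ratios show whether they kept step with each other. The counts of chi-miR-182 per count of chi-miR-183 were 3.79, 2.96 and 3.72 in LL replicates 1 to 3. In DP the ratios were 2.33, 2.56 and 2.54. In LG the ratios were 2.36, 2.51 and 2.18. All 3 LL libraries were above all other libraries, and DP and LG overlapped. The mean ratio was 3.49 ± 0.459 in LL, 2.47 ± 0.129 in DP and 2.35 ± 0.167 in LG (SD, n = 3). The ratio differed between the 3 stages (exact permutation test of F, p = 0.0143, where the smallest p that the 1680 arrangements allow is 0.00357). On the log2 scale, DP was below LL by a difference of −0.49, LL was above LG by 0.56, and DP and LG differed by 0.08. The test did not pass without LG replicate 1 (exact permutation p = 0.0536) or LG replicate 3 (exact permutation p = 0.0607), although the LL ratios remained the highest in each case.

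The ratio of chi-miR-96 to chi-miR-183 was 0.696, 0.466 and 0.662 in LL. In DP it was 0.522, 0.210 and 0.503, and in LG it was 0.624, 0.640 and 0.513. The stages overlapped, and the lowest value, in DP replicate 2, was 3.31-fold below the highest. No difference between the stages was detected (exact permutation test, p = 0.193).

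The ratio of chi-miR-96 to chi-miR-182 was 0.184, 0.157 and 0.178 in LL. In DP it was 0.224, 0.0824 and 0.198, and in LG it was 0.264, 0.255 and 0.235. The LG libraries were above all others and DP replicate 2 was far below, so that no difference was detected over all 9 libraries (exact permutation test, p = 0.189). Without DP replicate 2 the p was 0.00357 (exact permutation test). In all, 6 ratios were tested, and their p-values are given without adjustment. Pairs of stages were not tested, as an exact permutation test of 3 libraries against 3 cannot go below p = 0.10.

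As shares of the cluster's own counts, chi-miR-182 made up 68.4 ± 1.27% in LL, 63.7 ± 3.78% in DP and 59.6 ± 0.802% in LG (SD, n = 3). The share of chi-miR-183 was 19.8 ± 2.42% in LL, 25.8 ± 0.939% in DP and 25.4 ± 1.54% in LG. The share of chi-miR-96 was 11.8 ± 1.15% in LL, 10.5 ± 4.31% in DP and 14.99 ± 0.958% in LG. A ratio between different miRNAs also holds how well each is captured in library preparation, so the shares describe the reads and are compared between stages only.

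**Figure D3:**
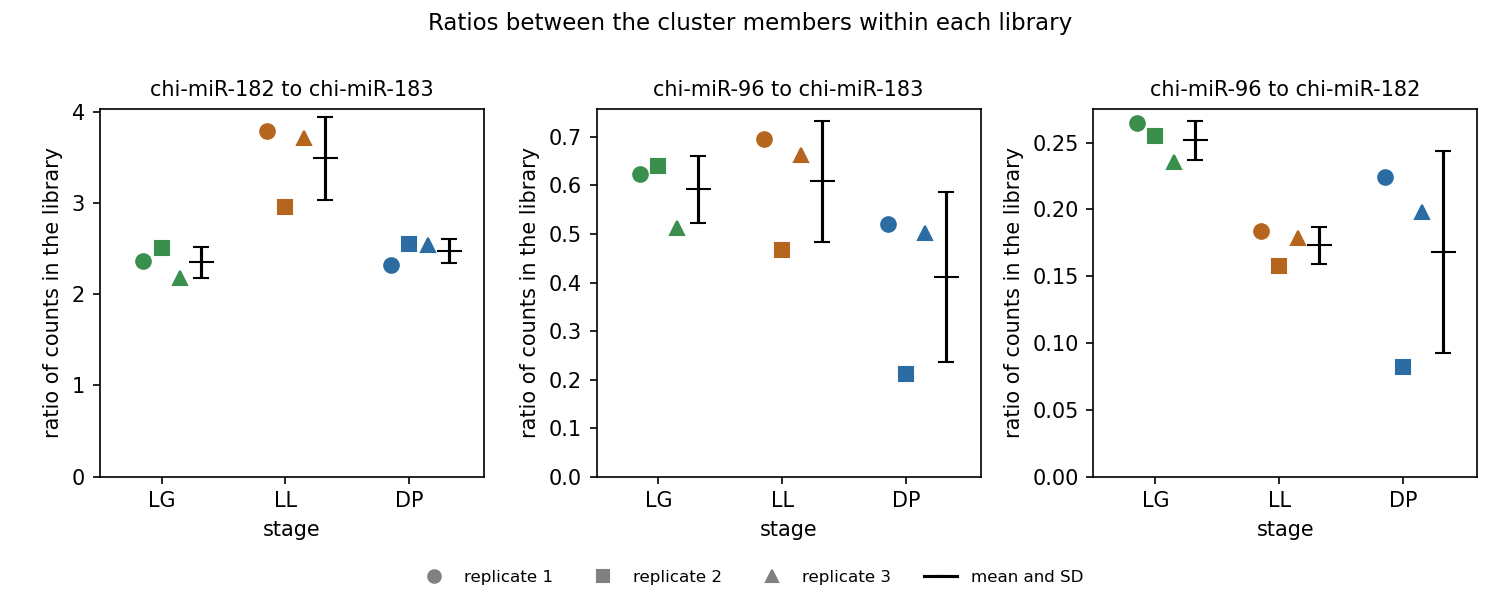
Ratios of counts between cluster members within each library, chi-miR-182 to chi-miR-183, chi-miR-96 to chi-miR-183 and chi-miR-96 to chi-miR-182, for LG, LL and DP; points are goats, marker shapes give the replicate number, and bars are the mean with its SD. The LL ratios of chi-miR-182 to chi-miR-183, 2.96 to 3.79, lie above all others, and DP replicate 2 is the lowest point of both ratios of chi-miR-96, at 0.210 and 0.0824.

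The miR-200 family (chi-miR-200a, chi-miR-200b, chi-miR-200c, chi-miR-141 and chi-miR-429) represses the ZEB transcription factors and is used here as the epithelial reference. Other epithelial miRNAs, miR-203 and miR-205, were not analysed here. In DP vs. LL, all 5 family members fell, with log2 fold changes of −1.02 to −1.23 (adjusted p 0.0035 to 0.0198, edgeR) and no overlap between stages, where 11.6% of all miRNAs tested were DE and lower in DP and 41.2% did not overlap. All 5 of these calls were lost with scaling by library size only, with log2 fold changes of −0.65 to −0.88. The call of chi-miR-200a was also lost without DP replicate 2 (−0.93) or without LG replicate 1, 2 or 3 (−0.9959 to −0.9997, just under the fold threshold). The call of chi-miR-200b was lost without DP replicate 3 (−0.98), and that of chi-miR-141 without LL replicate 1 (−1.04, adjusted p = 0.0576), LL replicate 3 (−0.99) or DP replicate 2 (−0.81). In DP vs. LG, chi-miR-200a (−1.68), chi-miR-141 (−1.73) and chi-miR-429 (−1.48) fell, where 9.91% of all miRNAs tested were DE and lower in DP. chi-miR-200b (−0.85, adjusted p = 0.0130, edgeR) and chi-miR-200c (−0.85, adjusted p = 0.0170) passed the p but not the fold threshold, and both were DE-miRNAs in 14 of 19 alternatives. In LL vs. LG, none of the 5 was a DE-miRNA, but with library size only chi-miR-200a (−1.23 in place of −0.65, adjusted p = 0.0100, edgeR) and chi-miR-141 (−1.26 in place of −0.65, adjusted p = 0.0301) were called. The median log2 fold change of the family was −1.11 in DP vs. LL, −1.48 in DP vs. LG and −0.27 in LL vs. LG, against 0.12, 0.18 and 0.17 for all miRNAs tested.

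The cluster was then set against the family within each library. The denominator was lower in DP, so this ratio was higher there for the median miRNA too. The median over the 696 miRNAs tested was 2.25-fold higher in DP than in LL and 2.29-fold higher in DP than in LG, and the exact tests below compare the stages and not the members with this median. chi-miR-183 had 5.44, 4.87 and 2.3002 counts per 1000 counts of the miR-200 family in LL replicates 1 to 3. In DP it had 19.7, 24.1 and 18.8, and in LG it had 7.24, 5.03 and 3.95. Every DP library was above every library of LL and LG, whereas LL and LG overlapped. The means were 4.202 ± 1.67 in LL, 20.9 ± 2.80 in DP and 5.41 ± 1.68 in LG (SD, n = 3), and the ratio differed between the stages (exact permutation test, p = 0.0179). From the mean log2 ratios, from which all folds of these ratios were taken, it was 5.27-fold higher in DP than in LL and 3.96-fold higher than in LG.

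chi-miR-182 had 20.6, 14.4 and 8.55 counts per 1000 family counts in LL. In DP it had 45.7, 61.5 and 47.9, and in LG it had 17.1, 12.6 and 8.59. DP again lay apart from both stages, which overlapped each other. The means were 14.5 ± 6.03 in LL, 51.7 ± 8.53 in DP and 12.8 ± 4.25 in LG (SD, n = 3; exact permutation test, p = 0.0286). From the mean log2 ratios, it was 3.76-fold higher in DP than in LL and 4.17-fold higher than in LG.

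chi-miR-96 had 3.79, 2.27 and 1.52 counts per 1000 family counts in LL. In DP it had 10.3, 5.06 and 9.48, and in LG it had 4.52, 3.22 and 2.02. DP replicate 2, the lowest DP library, was still above all libraries of LL and LG. The means were 2.53 ± 1.15 in LL, 8.27 ± 2.80 in DP and 3.25 ± 1.25 in LG (SD, n = 3; exact permutation test, p = 0.0321). From the mean log2 ratios, it was 3.35-fold higher in DP than in LL and 2.56-fold higher than in LG, the latter close to the 2.29-fold of the median miRNA. The level of chi-miR-96 itself did not pass the test in either comparison (log2 fold changes of 0.59 and 0.27). This test did not pass without LL replicate 2 (exact permutation p = 0.0643), LL replicate 3 (0.0857), DP replicate 1 (0.1), DP replicate 3 (0.1), LG replicate 1 (0.05) or LG replicate 2 (0.075). With a rank statistic in place of F, the exact permutation p was 0.05 for chi-miR-183, 0.05 for chi-miR-96 and 0.0714 for chi-miR-182. The 3 ratios share the family as their denominator and are therefore not independent of each other.

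**Figure D4:**
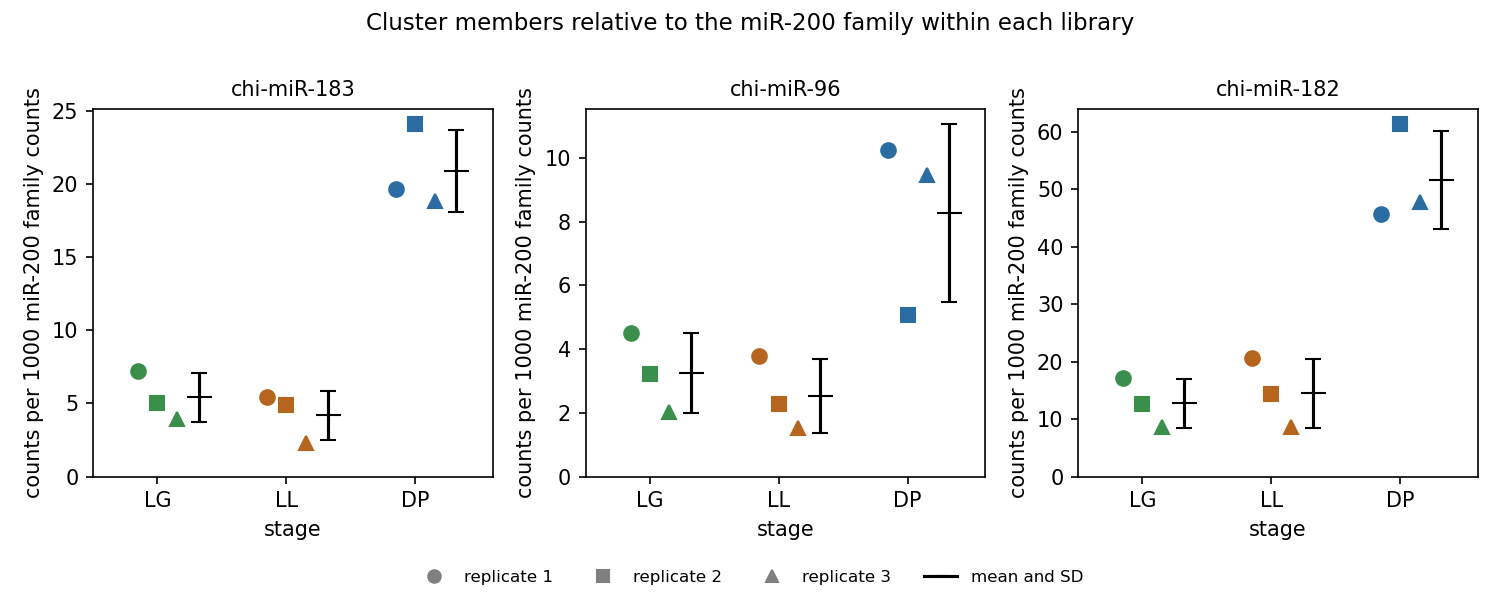
Counts of chi-miR-183, chi-miR-96 and chi-miR-182 per 1000 counts of the miR-200 family within each library, for LG, LL and DP; points are goats, marker shapes give the replicate number, and bars are the mean with its SD. For each member the DP libraries, at 18.8 to 24.1, 5.06 to 10.3 and 45.7 to 61.5, lie above all libraries of the other stages.

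Lists of markers of other cell types were also compared between the stages. The immune list was miR-142, miR-146a, miR-150, miR-155 and miR-223, and that of stroma and smooth muscle was miR-143, miR-145, miR-199a and miR-214. The endothelial list was miR-126, the muscle list was miR-1, miR-133a, miR-133b, miR-206 and miR-499, and the red blood cell list was miR-144 and miR-451. The summed level of the epithelial list was 34893 to 42110 CPM in LL, 13064 to 20811 CPM in DP and 34218 to 37559 CPM in LG. For the immune list, it was 921 to 1339 CPM in LL, 1255 to 2431 CPM in DP and 410 to 640 CPM in LG, and 1 of 5 miRNAs tested rose in DP vs. LL, against 15.1% of all miRNAs tested. The list of stroma and smooth muscle summed to 79066 to 126935 CPM in LL, 48542 to 155096 CPM in DP and 58005 to 66273 CPM in LG, and 4 of 8 rose in DP vs. LL. The endothelial list summed to 15853 to 22980.0 CPM in LL, 19028 to 31975 CPM in DP and 14716 to 16363 CPM in LG, with 0 of 2 called in DP vs. LL by edgeR. The muscle list summed to 722 to 933 CPM in LL, 971 to 3448 CPM in DP and 420 to 531 CPM in LG, and 1 of 6 rose in DP vs. LL. The red blood cell list summed to 364 to 551 CPM in LL, 122 to 1284 CPM in DP and 87.1 to 168 CPM in LG, with 0 of 3 called in DP vs. LL. Arms were counted separately and miR-142 was not analysed here, so the 5 immune miRNAs tested were chi-miR-146a, chi-miR-150, chi-miR-155-5p and both arms of chi-miR-223. In DP vs. LG, 5 of 5 immune, 5 of 8 stroma and smooth muscle, 1 of 2 endothelial, 2 of 6 muscle and 1 of 3 red blood cell miRNAs rose, against 21.6% of all miRNAs tested. In LL vs. LG, 3 of 5 immune and 1 of 8 stroma and smooth muscle miRNAs were higher in LL, against 8.91% of all. No miRNA of these 5 lists was a DE-miRNA with a negative log2 fold change in any comparison. Levels did go down without a call, and the median log2 fold change of the red blood cell list was −0.30 in DP vs. LL. However, chi-miR-146b-5p, a close relative of miR-146a outside the list, was chosen after its values were seen. It fell by 4.002 on the log2 scale in DP vs. LL (SE 0.71, adjusted p = 0.00243, edgeR). In whole tissue, fewer cells of a type and less RNA per cell cannot be told apart, and the part of these cell types in the levels of the cluster was not tested.

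The miRNAs with profiles most like those of the members were sought among the 229 known miRNAs whose mean reached 10 CPM. The measure was the root mean square difference of the centred log2 CPM over the 9 libraries, where lower values are more alike. chi-miR-182 was the closest to chi-miR-183, and chi-miR-183 the closest to chi-miR-182, at 0.27. Next to chi-miR-183 came chi-miR-16b-5p at 0.39 and chi-miR-128-3p at 0.41, while chi-miR-96 was the 13th at 0.49. Next to chi-miR-182 came chi-miR-342-3p at 0.29 and chi-miR-425-5p at 0.35, while chi-miR-96 was the 17th at 0.48. The profile of chi-miR-96 was closest to chi-miR-181b-5p at 0.40, chi-miR-128-3p at 0.44 and chi-let-7f-5p at 0.48. For chi-miR-96, the other members of the cluster were the 5th (chi-miR-182, at 0.48) and the 7th (chi-miR-183, at 0.49), close to the value of chi-let-7f-5p. The profiles share libraries and scaling, so these values describe the 9 libraries.

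Most of these close miRNAs also had their highest mean level in DP. This largely follows from choosing them, in the same libraries, for profiles like those of the members, and is not a separate result. chi-miR-16b-5p had 444 ± 24.5 CPM in LL, 1265 ± 453 CPM in DP and 704 ± 85.0 CPM in LG (SD, n = 3). chi-miR-342-3p had 397 ± 43.4 CPM in LL, 658 ± 181 CPM in DP and 338 ± 92.6 CPM in LG. chi-miR-425-5p had 64.1 ± 4.67 CPM in LL, 103 ± 29.6 CPM in DP and 48.2 ± 3.72 CPM in LG. As for chi-miR-182, the LG mean of the last pair was the lowest. chi-miR-128-3p had 370.2 ± 99.4 CPM in LL, 623 ± 255 CPM in DP and 379 ± 76.4 CPM in LG. chi-let-7f-5p, an abundant let-7 miRNA, had 25936 ± 2203 CPM in LL, 46748 ± 8007 CPM in DP and 28604 ± 2514 CPM in LG. chi-miR-181b-5p was the exception, with 277 ± 37.5 CPM in LL, 381 ± 118 CPM in DP and 385 ± 36.9 CPM in LG.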

How the data were processed

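Small RNA of 18 to 30 nt was sequenced from the mammary gland of 9 goats, and groups were taken from the sample labels. For each mature miRNA the deposited table holds a raw count in each library. To make it, the authors removed adapters and low-quality reads, mapped the rest to goat assembly ARS1.2 and ran the miRDeep2 quantifier over miRBase and predicted miRNAs together. Per the submitters' processing notes, FastQC 0.11.9, cutadapt 4.2 and Bowtie 1.1.1 were used. LL replicate 3 was treated as an expected count column of the deposited table, because 2 of its miRNAs are not whole numbers, and was rounded. No member is affected. The paper's RUVSeq step was not applied.

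Stages were compared with the quasi-likelihood test of edgeR 4.0.16 (R 4.3.3) after TMM scaling, and all 9 libraries entered 1 fit, with Benjamini-Hochberg adjustment over all 696 miRNAs tested. The SE is the absolute log2 fold change divided by the square root of F. Log2 ratios of counts within a library were compared over the 3 stages by an exact permutation test of F (Python 3.11.15, scipy 1.17.1). p-values set the differences between stages against the spread between goats, with 3 goats per stage. Since reads carried no molecular identifiers, intervals and floors cover counting error only. The floor of 3 counts was 0.0873 to 0.219 CPM, depending on the library. No pair of libraries within a stage was a duplicate (chi-square per degree of freedom of at least 260), and pairs across stages were not checked. The fits were tested on simulated counts.

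The text names the members, the epithelial list, the 3 known miRNAs most like each member (log2 CPM with prior count 2) and chi-miR-148a-3p. A planned rule on miRNAs with the same bases 2 to 7 was not applied, and no sequences are printed, because no sequence table was used here. The members and lists were chosen with earlier results of these data known. Other runs used limma-voom (limma 3.58.1), DESeq2 1.42.0, other scalings and filters, 2 stages only, a replicate block and leaving out each library. For the ratios they were an offset of 0.5, the geometric mean of the family, a rank statistic, a replicate block and leaving out each library.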

Additional observations from a re-analysis of the deposited data

How the results depend on the processing

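chi-miR-183 in DP vs. LL (log2 fold change 1.18) was no longer a DE-miRNA with DESeq2 size factors in edgeR (1.13), TMM without chi-miR-148a-3p (1.04), no filter on low counts (1.09), at least 10 counts in every library (1.02) and only the 2 stages compared (1.07), with adjusted p-values of 0.0564 to 0.0927. Without 1 library at a time, it ranged from 0.80 to 1.41. It was called with DESeq2, limma-voom, upper quartile scaling, library size and the replicate block (1.24). Over all 19 alternatives, the adjusted p ranged from 0.00863 to 0.126. chi-miR-96 in DP vs. LG (0.27) turned to −0.037 with TMM without chi-miR-148a-3p, −0.11 with no filter and −0.10 with at least 10 counts, and ranged from −0.32 to 0.45 without 1 library. chi-miR-182 in LL vs. LG (0.25) turned to −0.31 with library size and −0.065 with no filter, and ranged from −0.27 to 0.43 without 1 library. In LL vs. LG, chi-miR-200b (0.26) turned to −0.31 with library size and −0.051 with no filter, and chi-miR-200c (0.38) to −0.19 with library size. The cause was not tested. The other 6 tests of a member kept their sign and gave no DE-miRNA in all 19 alternatives.

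The exact permutation p of chi-miR-182 to chi-miR-183 (0.0143) was 0.0556 with the replicate block and 0.0143 to 0.0607 without 1 library. That of chi-miR-96 to chi-miR-182 (0.189) was 0.00357 to 0.4 without 1 library, the lowest without DP replicate 2. Relative to the miR-200 family, a rank statistic gave 0.05 for chi-miR-183, 0.05 for chi-miR-96 and 0.0714 for chi-miR-182, and the replicate block gave 0.0556 for chi-miR-182. Without 1 library, these exact permutation p-values were 0.0143 to 0.0321, 0.0214 to 0.1 and 0.0143 to 0.0357. DP was the highest stage in all of them.

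Correlations of same-numbered libraries of different stages were −0.10 to 0.21 over 9 pairs, 8 of them positive and 3 above the highest of 18 unlike pairs (−0.23 to 0.15). As not all were over 0.1, the numbers were not taken to pair libraries. However, replicate 3 was the lowest library of each stage for chi-miR-183 and chi-miR-182, and of LL and LG for chi-miR-96. With the replicate block in edgeR, chi-miR-182 had an adjusted p of 0.0391 in DP vs. LL (0.77) and 0.0129 in DP vs. LG (0.97), and chi-miR-183 of 0.0305 in DP vs. LG (0.88), all below the fold threshold.

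The number of DE-miRNAs in LL vs. LG (89) came to 68 higher and 73 lower with only the 2 stages compared and 33 to 125 without 1 library, at 33 and 36 without LL replicates 1 and 2 and 54 and 41 without LG replicates 1 and 3. With library size only, the calls in DP vs. LL split into 165 higher and 59 lower (105 and 81 with TMM), those in DP vs. LG into 116 and 85 (150 and 69 with TMM), and those in LL vs. LG into 30 and 90 (62 and 27 with TMM). TMM without chi-miR-148a-3p gave 81 and 94, 113 and 99, and 48 and 43. The median log2 fold change of all miRNAs moved from 0.12 to 0.49 in DP vs. LL, from 0.18 to −0.02 in DP vs. LG and from 0.17 to −0.42 in LL vs. LG with library size only. With 3 goats per stage, a log2 difference of a member had an SE of 0.38 to 0.43. Counting error of the members was much smaller than the spread between goats.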

Other observations

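chi-miR-1271-5p, which is known to share the seed of miR-96 and lies outside the cluster, was looked at after its values were seen. Its level was 89.9 ± 8.09 CPM in LL, 89.9 ± 12.7 CPM in DP and 89.4 ± 12.2 CPM in LG (SD, n = 3). By library size alone, its means were 72.0, 93.6 and 108 CPM.

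The miRNA genes nearest to the cluster on chromosome 4, MIR335 and MIR592, were also chosen after their values were seen. chi-miR-335-3p had 107 ± 64.3 CPM in LL, 23.4 ± 14.9 CPM in DP and 21.2 ± 6.97 CPM in LG (SD, n = 3), so its mean was highest in LL. chi-miR-335-5p, the other arm of that hairpin, had 32.4 ± 19.9 CPM in LL, 23.5 ± 21.8 CPM in DP and 6.94 ± 2.00 CPM in LG. chi-miR-592 was low throughout, with 3.35 ± 1.40 CPM in LL, 4.30 ± 3.59 CPM in DP and 0.652 ± 0.438 CPM in LG. Differences between these miRNAs and the cluster were not tested.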
